A study of Mus musculus with 18 samples.

Results

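Cytosolic ribosomal protein genes encode the proteins of the ribosome that works outside mitochondria, those of the small subunit named Rps and those of the large subunit named Rpl. They were taken here as the genes with a probe set of a single platform symbol of the form Rpl or Rps followed by a number, or Rplp0, Rplp1, Rplp2 or Rpsa, leaving out the S6 kinases. The rule found 35 genes among 8252 genes that have such a probe set, and each is represented by its probe set of highest mean signal. Of the 35, 25 were bright enough to test, which means that they lay among the brightest 60% of probe sets. RNA had been measured in mouse heart on Affymetrix U74Av2 arrays as a probe set signal on a linear scale.

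The groups were hearts of FVB mice of 3 weeks (5 distinct arrays, 2 labelled female and 3 male) and hearts of TNF transgenic mice of 3 weeks (6 arrays, 3 of each sex), of 13 weeks (3 males) and of 40 weeks (3 females). All transgenic groups carry the TNF-alpha transgene, which the labels call cardiac-specific without naming the promoter that drives it. All FVB arrays are of 3 weeks, so a change with age in transgenic hearts has no FVB counterpart, and the later ages differ in sex. The comparisons asked how the transgene and, within transgenic hearts, age changed the transcripts of the ribosome. The labels do not say that the samples of a group were separate animals, so each p-value reflects the spread among these arrays, part of which may be technical.

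A ribosome contains 1 copy of most of its proteins, and cells keep the amounts of these proteins close to each other. Most ribosomal protein transcripts begin with a C followed by a run of pyrimidines, the 5' terminal oligopyrimidine or TOP motif, through which mTOR signalling and the protein LARP1 set how much of them is translated. Such control acts on translation and need not alter the transcript level, which is what these arrays measure. In heart, growth of muscle cells goes along with more ribosomes, made through RNA polymerase I and factors of the MYC family. Ribosomal protein genes also have many processed pseudogenes of nearly the same sequence, so a probe set can take signal from more than its named gene.

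To show what these start sites look like, RefSeq promoter sequences (build GRCm38.p6, from 250 bases before the annotated start to 50 after it) were searched, and 28 of the 35 genes had an entry. Of their 37 entries, 10 had a run of 8 or more C or T that touched the 5 bases on either side of the start, which is 27.0%, against 9.72% of all 32851 entries. A run of 6 or more was found in 35.1% against 21.0%. The following 80-base windows run 5' to 3' from 60 bases before the start to base 20 after it, on the strand of the gene, with the longest such run in capitals. They are shown for the called genes with the longest runs (Rpl13a at chr7:45128726-45128805, minus strand, Rpl7a at chr2:26910747-26910826, plus strand, and Rps27 at chr3:90213629-90213708, minus strand), for Rps19, the gene that rose most (chr7:24884532-24884611, plus strand, the first of its 3 annotated starts), and for Rps18 and Rps10, which did not pass the test (chr17:33955646-33955725 and chr17:27635225-27635304, both minus strand). The genes shown were picked after their values were seen.
Rps19: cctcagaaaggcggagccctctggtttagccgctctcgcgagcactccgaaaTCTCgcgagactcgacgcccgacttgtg
Rpl13a: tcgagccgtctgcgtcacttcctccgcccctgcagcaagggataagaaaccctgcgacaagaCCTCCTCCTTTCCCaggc
Rpl7a: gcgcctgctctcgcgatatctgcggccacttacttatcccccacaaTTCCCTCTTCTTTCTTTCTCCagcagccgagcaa
Rps27: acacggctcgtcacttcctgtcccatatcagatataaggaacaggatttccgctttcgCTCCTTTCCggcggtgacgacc
Rps18: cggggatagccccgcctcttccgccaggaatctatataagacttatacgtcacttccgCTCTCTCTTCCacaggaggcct
Rps10: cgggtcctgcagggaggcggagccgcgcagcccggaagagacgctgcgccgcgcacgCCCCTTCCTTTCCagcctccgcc

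The run was 14 bases long in Rpl13a, 21 in Rpl7a, 9 in Rps27, 11 in Rps18 and 13 in Rps10, while the Rps19 starts had runs of 4, 4 and 1 bases. Among genes with an entry, a run of 8 or more was found in 2 of 7 that were called higher at 3 weeks (Rpl13a and Rpl7a), in the 1 called lower (Rps27) and in 4 of 13 that were not called (Rpl19, Rps10, Rps18 and Rps24). So it occurred in genes of every outcome. The base at the annotated start was a C in Rps27, Rps10 and Rps18, but not in Rpl13a, Rpl7a, Rpl19 and Rps24. Some capitals, as in Rpl7a, also lie before the annotated start. A run counted here is therefore not by itself a TOP motif. Other motifs, searched on both strands, were CCGGAAG, bound by ETS and GABP factors, in 32.4% of the entries of ribosomal protein genes against 8.86% of all entries. AAGATGG, the core that YY1 recognises, was in 24.3% against 6.34%, and GGGCGG, the Sp1 box, in 56.8% against 35.7%. TATAAA was in 10.8% against 13.6%. The matches describe these windows and do not show that a factor was bound.

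The array deposited under FVB female replicates 1 and 2 holds the same values in both columns and was counted as 1 sample. It stood apart, with a Spearman correlation of 0.767 to 0.850 with the other 16 arrays, and the remaining 4 FVB arrays had 0.953 to 0.962 among themselves. The arrays labelled FVB male 1 and 2 carried Xist, a transcript of female cells, at a signal of 1381 and 2706. The Y-linked Eif2s3y was at 298.7 and 67.4 on these arrays, at 544.9 on FVB male 3, and at 115.3 on the outlying array labelled female, against 7.6 to 30.8 on transgenic females of 3 weeks. Arrays are named here by their labels. Tnf lay between 12.5 and 124.9 on FVB arrays and between 5476 and 11343 on transgenic arrays of 3 weeks, so the targeted gene followed the labels. RNA quality was read from the 3' signal of the Actb control divided by its 5' signal. At 3 weeks this ratio averaged 1.71 ± 0.26 (SD, n = 5) on FVB arrays against 1.26 ± 0.10 (SD, n = 6) on transgenic ones, a difference with p = 0.0087 in a two-sided exact permutation test. The Gapdh ratio averaged 1.06 ± 0.08 (SD, n = 5) against 1.005 ± 0.09 (SD, n = 6), and here the two-sided exact permutation p was 0.281.

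At 3 weeks most ribosomal protein transcripts moved little, and those that moved went both ways. Of the 25 tested genes, 8 were higher in transgenic than in FVB hearts, 2 were lower and 15 did not pass the test (limma on log2 signal, Benjamini-Hochberg adjusted p under 0.05 over 7453 probe sets). That is 10 of 25, or 40%, while 46.6% of all probe sets tested were called, 24.7% higher and 21.9% lower. In this fit the share called among ribosomal protein genes was thus near that of the array as a whole. That did not hold without the outlying FVB array or with quantile normalisation, as given below. The median log2 difference of the 25 genes was 0.18, against -0.01 for all probe sets, and they ranged from -0.57 to 1.70, with 16 of 25 above 0. The outlying FVB array weighs on this count: without it 4 genes were called higher (Rps19, Rpl13a, Rpl10a and Rps4l) and 0 lower, and the same 4 and 0 were called without it and the arrays labelled FVB male 1 and 2, with 41% and 36.1% of all probe sets called. With quantile normalisation 15 were called higher and 2 lower, with a median of 0.40 and 48.7% of all probe sets called, so the number that rose depends on how the arrays are scaled. The count of genes called lower was 1 when FVB female 3, FVB male 3, or transgenic female 1, female 3, male 2 or male 3 of 3 weeks was left out. At an unadjusted p under 0.05 there were 12 of the 25 genes and 53.9% of all probe sets.

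**Figure D1:**
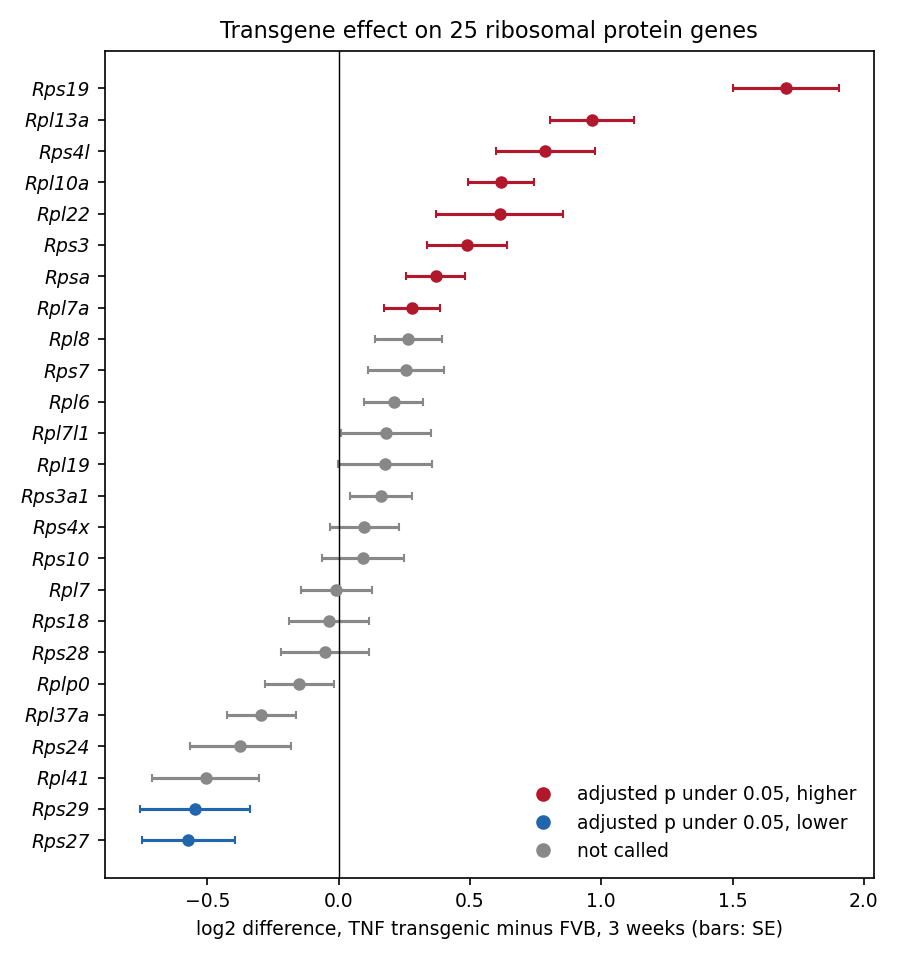
Log2 difference of TNF transgenic minus FVB hearts at 3 weeks for the 25 tested ribosomal protein genes (points, with SE as bars), in order of size. Rps19 stands to the right of the others at 1.70, and the 2 genes called lower, Rps27 and Rps29, lie at -0.57 and -0.55.

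Markers of other cells moved with the same groups. All 9 measured cardiomyocyte markers were lower, with a median of -1.05 and a summed signal of 94405 to 186757 on transgenic arrays against 179186 to 292781 on FVB arrays. With quantile normalisation 6 of the 9 were lower and the median was -0.49. All 9 tested macrophage markers were higher, with a median of 2.30 and a summed signal of the 11 on the array of 32902 to 39638 against 5029 to 7699. All 6 tested T and NK cell markers were higher (1913 to 4029 against 611.0 to 1085), as were 3 of 5 B cell markers (1700 to 2357 against 648.3 to 1911). Of the other markers, 3 of 8 endothelial genes were lower, 2 of 6 fibroblast genes higher and 1 lower, 2 of 3 smooth muscle genes higher and 1 lower, and 1 of 2 erythroid genes lower. Skeletal muscle Myh4 was lower (-0.94) and Acta1 higher (0.81), and the lung gene Sftpc (-1.02) and the thymus gene Rag1 (-1.58) were lower. The other tested thymus gene, Dntt, was not called (-0.09). Without the outlying FVB array 0 of the 2 thymus genes and 0 of the 2 skeletal muscle genes were called, while Sftpc was still lower. The part of these shifts, and of the Actb ratio above, in the ribosomal protein values was not tested. In whole heart RNA, more cells of a type and more RNA per cell cannot be told apart.

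Rps19, a protein of the small subunit whose loss causes Diamond-Blackfan anaemia in people, rose most. Its signal was 2146 on the outlying FVB array, 1424 on FVB female 3 and 1592, 2295 and 1531 on FVB males 1 to 3. On transgenic females of 3 weeks it was 5454, 3356 and 6744, and on transgenic males 6666, 6938 and 6240. Even transgenic female 2, the lowest, lay above every FVB array, so the groups did not overlap. The means were 1798 ± 394 (SD, n = 5) and 5899 ± 1354 (SD, n = 6), a 3.26-fold difference on the log2 scale of the fit (1.70, SE 0.20, limma adjusted p = 5.0e-06, higher on 6 of 6 transgenic arrays). The log2 difference stayed between 1.56 and 1.96 in 25 alternative fits, and all 25 called it.

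Rpl13a, a large-subunit protein that leaves the ribosome after interferon-gamma to silence inflammatory transcripts in myeloid cells, rose next. It had a signal of 321.6 and 495.9 on the FVB females and 511.5, 626.6 and 571.1 on the FVB males. On transgenic arrays of 3 weeks it was 809.1, 647.5 and 1019 in females and 1147, 1123 and 932.8 in males. The lowest transgenic value lay just above the highest FVB value, and the outlying FVB array was the lowest of all. The difference was 1.95-fold (log2 0.96, SE 0.16, limma adjusted p = 0.00017), and without that array 0.81 (adjusted p = 0.0012).

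Rpl10a, which forms the stalk of the large subunit next to the exit of the tRNA, was the third gene whose groups did not overlap. FVB arrays had 2694, 3687, 3510, 4283 and 3759, and transgenic arrays of 3 weeks had 5219, 5677, 5244, 4823, 6123 and 5057. All 6 transgenic values were above 4283, the highest FVB value. Their log2 difference came to 0.62 (SE 0.13, limma adjusted p = 0.00094). A second probe set of the gene was also higher, by 0.52 (adjusted p = 0.018). Rps19, Rpl13a and Rpl10a were the 3 of 25 genes, 12%, that lay higher on every transgenic array of 3 weeks than on every FVB array, where 14.5% of all probe sets tested did. For 0 of the 25 the transgenic arrays were all lower, against 9.14% of all probe sets.

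**Figure D2:**
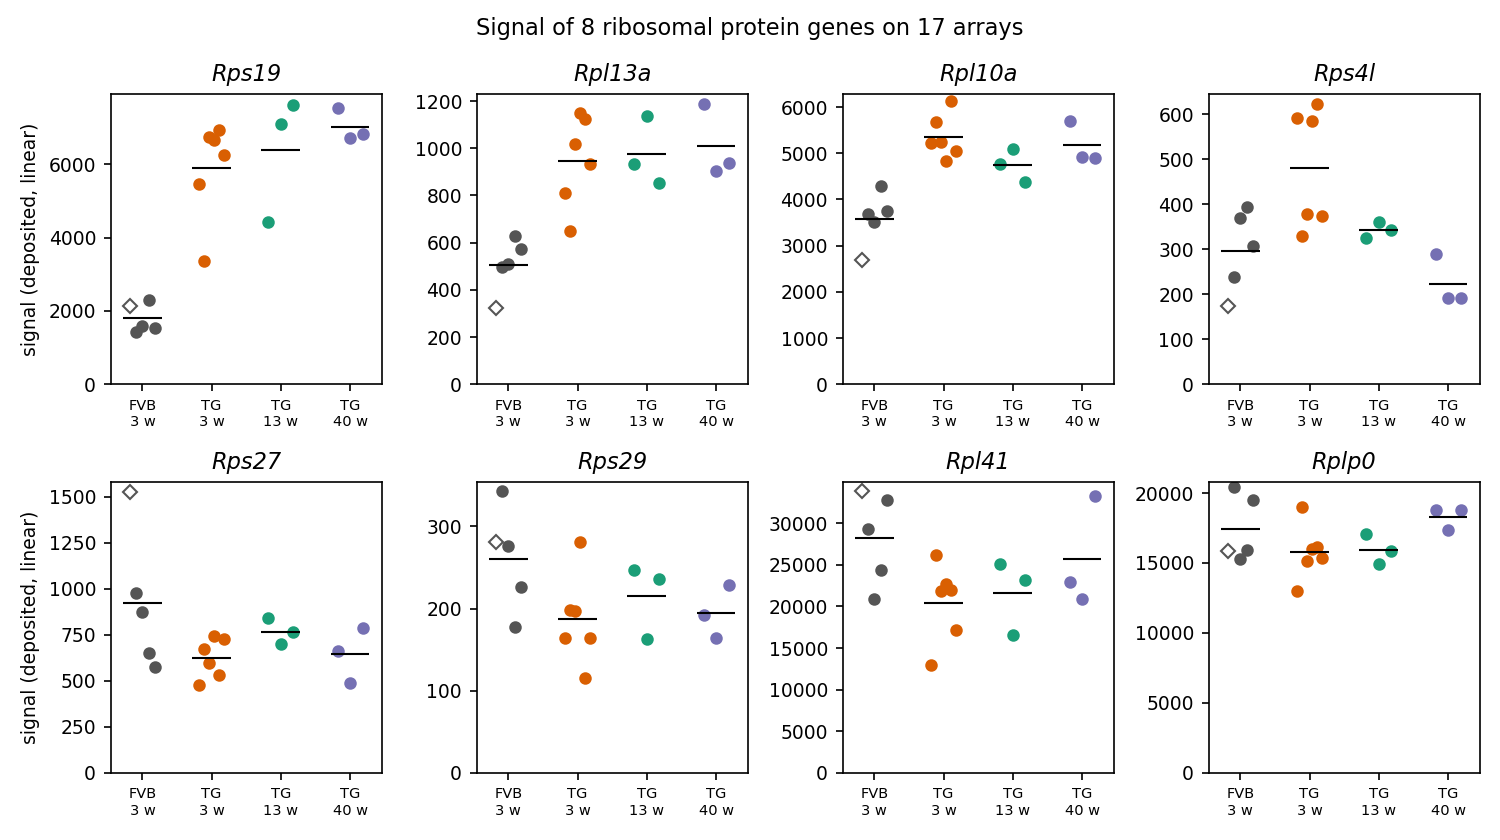
Deposited linear signal of 8 ribosomal protein genes on 17 arrays, with 1 point per array, a line at each group mean, and an open diamond for the outlying FVB array. Rps19, Rpl13a and Rpl10a on transgenic arrays of 3 weeks lie above all FVB arrays, while in the other 5 genes the groups overlap.

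The remaining genes called higher had overlapping groups. Rps4l, a paralogue of the X-linked small-subunit gene Rps4x, had 174.8 and 238.7 on FVB females, 368.5, 393.5 and 308.3 on FVB males, 591.3, 328.8 and 379.0 on transgenic females and 586.0, 623.6 and 374.5 on transgenic males. Its 3 highest values lay far above FVB and the other 3 within the range of the FVB males. Its log2 difference came to 0.79 (SE 0.19, limma adjusted p = 0.0033), but the mean over both probe sets of the gene gave -0.01, and its probe set (suffix s_at) is of a kind that can match more than 1 related transcript. Rps4x itself differed by 0.10 (adjusted p = 0.57). Caution over the suffix applies to other genes too. The probe set of Rpl7 ends in s_at, those of Rpl41 and Rps28 and the second of Rpl10a in f_at, and that of Rps24 in r_at.

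Rps3, a small-subunit protein that also binds the p65 subunit of NF-kB, had 4661, 8389, 7366, 7439 and 8520 on FVB arrays and 8039 to 10872 on transgenic arrays, with a median of 9912. The rise was 0.49 on the log2 scale (SE 0.15, limma adjusted p = 0.016). Rpsa, a small-subunit protein first described as a laminin receptor, had 2112 to 3055 against 3013 to 3683, a log2 difference of 0.37 (SE 0.11, adjusted p = 0.014). Rpl22, an RNA-binding protein of the large subunit that developing T cells need, differed by 0.61 (SE 0.24, adjusted p = 0.048), while its second, dimmer probe set gave -0.27 (adjusted p = 0.48). Rpl7a, a large-subunit protein, differed by 0.28 (SE 0.11, adjusted p = 0.044). On the outlying FVB array all of these 4 genes had their lowest signal of the 17 arrays, and none of the 4 was called without it. Rps3 and Rpsa were each called in 23 of 25 alternative fits, Rpl7a in 10 and Rpl22 in 8.

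Both genes called lower encode small zinc-binding proteins of the small subunit. Rps27 had 1529 on the outlying FVB array, 977.5 on FVB female 3 and 872.3, 652.9 and 573.4 on the FVB males. On transgenic arrays of 3 weeks it had 478.8, 670.9, 595.3, 746.5, 533.9 and 726.4. The transgenic values thus spread across those of FVB males 2 and 3, and the top FVB value belongs to the array that stands apart. The signal fell by 0.57 on the log2 scale (SE 0.18, limma adjusted p = 0.016), and 21 of 25 alternative fits called it. Rps29, the dimmest of the tested genes, had 281.5, 342.7, 276.0, 178.0 and 226.2 on FVB arrays and 164.7, 198.5, 196.8, 280.5, 114.9 and 164.5 on transgenic arrays. It fell by 0.55 (SE 0.21, limma adjusted p = 0.042), with 9 of 24 alternative fits calling it. Neither was called without the outlying array.

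The largest differences below 0 that missed the threshold were in Rpl41, Rps24 and Rpl37a. Rpl41, the shortest ribosomal protein, had 20941 to 33929 on FVB arrays (median 29270) and 13022 to 26179 on transgenic arrays of 3 weeks (median 21915), a log2 difference of -0.51 (SE 0.20, limma adjusted p = 0.051). Rps24, another Diamond-Blackfan gene, had 19950 to 30455 against 13680 to 22478, a difference of -0.37 (adjusted p = 0.12). Rpl37a had 3250 to 5132 against 3204 to 3975, a difference of -0.29 (adjusted p = 0.076). Rpl41 and Rps24 were among the brightest probe sets of the arrays, and with quantile normalisation they turned to 0.16 and 0.25. The highest signal of any probe set on an array was 29888 to 50735 in FVB and 16490 to 31721 in transgenic hearts of 3 weeks, and its part in these 2 genes was not tested. With quantile normalisation 6 of the 25 genes turned from below to above 0, the others being Rplp0, Rps28, Rps18 and Rpl7.

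By the brightest probe set of each gene, those closest to no difference were Rpl7, Rps18 and Rps28. Rpl7 differed by -0.01 (95% interval of the fit -0.30 to 0.28), Rps18 by -0.04 (-0.36 to 0.29) and Rps28 by -0.05 (-0.40 to 0.30). For Rps28 another bright probe set (mean signal 8733) gave 0.27 (limma adjusted p = 0.23). A dim probe set of Rps28 (mean signal 158.9) gave -0.59 (limma adjusted p = 0.097). The tested probe sets of Rps28 thus differed in sign, and none was called. Rplp0, the core of the acidic stalk that recruits elongation factors and a gene often used as a reference, had 15252 to 20418 on FVB arrays and 13024 to 19015 on transgenic arrays, with a difference of -0.15 (interval -0.43 to 0.13). These intervals hold for the signals as deposited. They do not show equal levels, but they leave no room for a change as large as that of Rps19. With quantile normalisation Rpl7 (0.28, limma adjusted p = 0.033) and Rps18 (0.30, adjusted p = 0.043) were called higher. Rps28 (0.21) and Rplp0 (0.29) were not called there. In the fit of the deposited signals, Rps10, Rps3a1, Rpl19, Rpl7l1, Rpl6, Rps7 and Rpl8 besides Rps4x were not called either and differed by 0.09 to 0.27.

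As a description over the whole set, the mean log2 signal of the 25 genes was 12.01 ± 0.10 (SD, n = 5) on FVB arrays and 12.19 ± 0.14 (SD, n = 6) on transgenic arrays of 3 weeks. The single arrays ran from 11.85 to 12.12 and from 11.98 to 12.33, so the groups overlapped, with the outlying FVB array lowest. The share of all signal that fell in these 25 probe sets was 2.09% to 2.50% in FVB hearts and 2.11% to 2.73% in transgenic hearts of 3 weeks. The array of transgenic female 1 (2.11%) and that of transgenic male 3 (2.23%) had the lowest shares of the 6. The same 2 arrays had the lowest Rpl41 and Rps24 signal of their group. These genes are the brightest of the 25 and weigh most on the share, so the 2 observations are not independent.

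**Figure D3:**
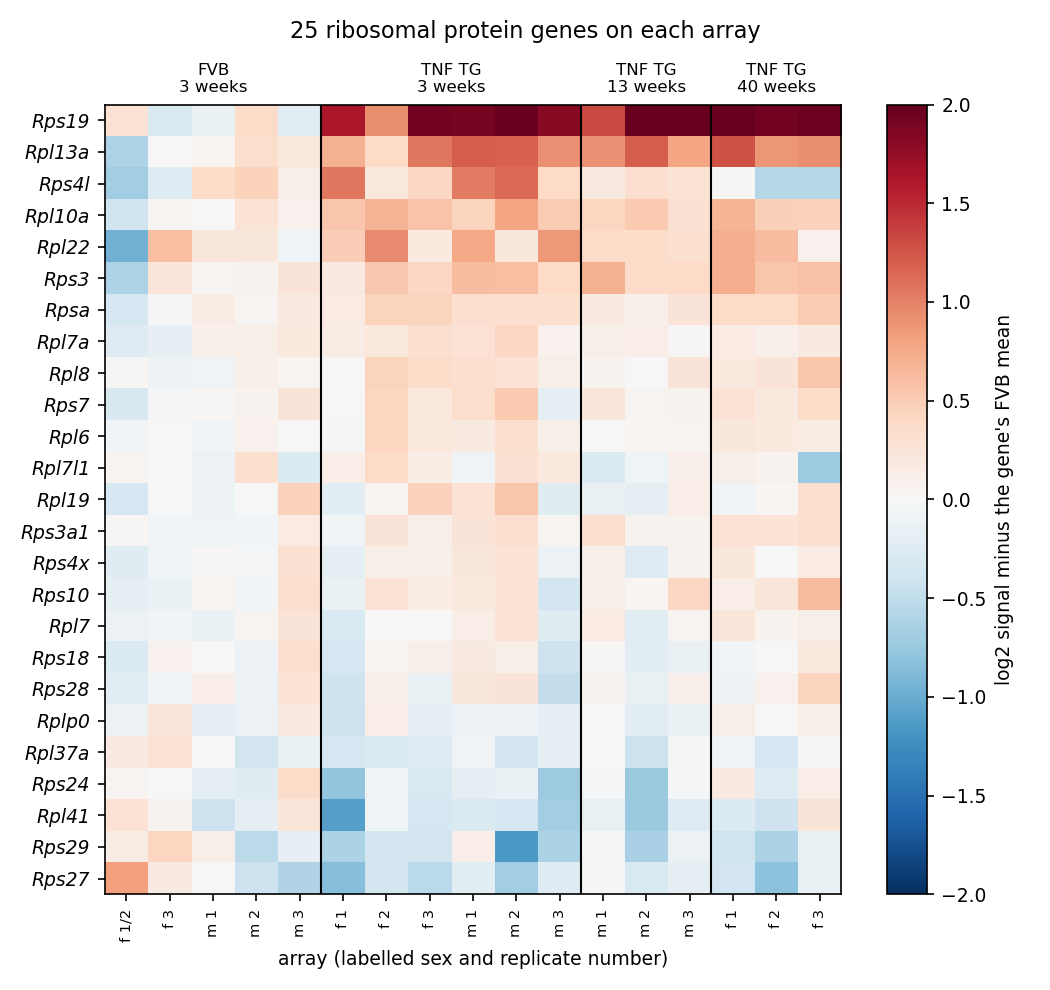
Log2 signal of each of the 25 genes on each of 17 arrays, minus the gene's mean over the FVB arrays (colour, from -2 to 2). Rps19 is high on all 12 transgenic arrays at every age, whereas most rows change little and the outlying FVB array (f 1/2) differs from the other FVB arrays in several genes.

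The 10 genes too dim to test were Rps15, Rpl39, Rps27l, Rpl35a, Rps14, Rps20, Rpl32, Rpl39l, Rpl38 and Rps13. Their signal was at most 167.6 on 16 arrays, and for all 10 the outlying FVB array was the highest, up to 1178 for Rps13. The dimmest tested gene, Rps29, had a mean log2 signal of 7.70 and the brightest untested one, Rps13, 6.58. These low signals come from single probe sets and say nothing of how much of these transcripts a heart contains. A further 39 probe sets list a ribosomal protein gene among several symbols and are not named. Of the 34 of them that were tested, 3 were higher and 3 lower. That is 17.6%, against 46.6% of all probe sets tested, and their median log2 difference was 0.05.

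The transgene effect was not shown to differ between the labelled sexes for any of the 25 genes. With limma 0 of them, and 0 of all 7453 probe sets (0%), passed the threshold for the difference of female and male effects, while 1 of the 25 and 1228 of all, 16.5%, had an unadjusted p under 0.05. The 1 gene was Rps27, with a female effect lower than the male effect by 1.03 on the log2 scale (95% interval -1.78 to -0.27, limma adjusted p = 0.20). Without the outlying FVB array the difference was -0.70 (limma adjusted p = 0.61). With FVB female 3 left out, so that the outlying array alone stood for the FVB females, it was -1.35 (adjusted p = 0.022), in a fit that called 20% of all probe sets. The arrays labelled FVB male that carry Xist also enter this comparison.

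None of the 25 genes passed the test for a change with age in transgenic hearts. From 3 to 13 weeks in males, 0 of the 25 genes passed the test in limma and 1 had an unadjusted p under 0.05. Of all probe sets 39, or 0.523%, were called, 0.349% higher and 0.174% lower, and 8.61% had an unadjusted p under 0.05. The median log2 difference was -0.09, and the 95% intervals of 24 of the 25 genes lay within 1 log2 unit of 0, those of 10 within 0.5. From 3 to 40 weeks in females, again 0 passed in limma and 1 had an unadjusted p under 0.05. Of all probe sets 50, or 0.671%, were called, 0.376% higher and 0.295% lower, and 9.1% had an unadjusted p under 0.05. Here the median was 0.12, and 23 intervals lay within 1 log2 unit and 7 within 0.5. With 3 arrays a group these intervals leave changes of moderate size possible in most genes. For the difference between the 2 age changes, 0 of 25 and 0 of all probe sets (0%) were called by limma, with 0 and 214 (2.87%) at an unadjusted p under 0.05. In that comparison age and sex cannot be told apart. The Actb ratio of 3' to 5' signal in transgenic hearts was 1.34 ± 0.12 (SD, n = 3) at 13 weeks and 1.58 ± 0.19 (SD, n = 3) at 40 weeks. At 3 weeks it was 1.26 ± 0.10 (SD, n = 6, both sexes). The Gapdh ratio was 1.02 ± 0.085 and 1.21 ± 0.29 at the later ages, against 1.005 ± 0.09 at 3 weeks. The part of these ratios in the age changes was not tested.

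Rps19 kept its high signal in the older hearts. Transgenic males of 13 weeks had 4418, 7084 and 7616 and transgenic females of 40 weeks had 7533, 6703 and 6834, all above the highest FVB value of 2295. Its change was -0.09 (SE 0.27) to 13 weeks and 0.49 (SE 0.27, limma adjusted p = 0.65) to 40 weeks, the latter the highest of the 25. Rpl13a was at 852.5 to 1139 and 905.4 to 1189 at the later ages, and Rpl10a at 4375 to 5083 and 4906 to 5690. Both were thus above their FVB ranges on all 6 older arrays too. The share of all probe sets that did so at the later ages was not counted.

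Rps4l showed the largest change with age in both sexes. Its signal was 323.9, 360.1 and 343.4 in males of 13 weeks, against 586.0, 623.6 and 374.5 at 3 weeks, and 288.7, 190.6 and 191.4 in females of 40 weeks, against 591.3, 328.8 and 379.0. All 3 older arrays lay below all 3 younger ones in each sex. The share of all probe sets that separate in this way was not counted, and this gene is named for its large change. On the log2 scale it changed by -0.59 (SE 0.25, limma adjusted p = 0.52) and -0.94 (SE 0.25, adjusted p = 0.15), and neither passed the test. Over the alternatives the first ranged from -0.82 to -0.20 and the second from -1.13 to -0.28, in both cases closest to 0 with the mean over both probe sets of the gene. With array weights the second was called (-1.06, limma adjusted p = 0.0014), in a fit that called 10.8% of all probe sets. All 6 older arrays, and 3 of the 6 transgenic arrays of 3 weeks, lay within the FVB range of 174.8 to 393.5. Apart from Rps19, the next largest values were -0.40 for Rpl7l1, a nucleolar relative of Rpl7, and 0.40 for Rps24, both to 40 weeks.

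**Figure D4:**
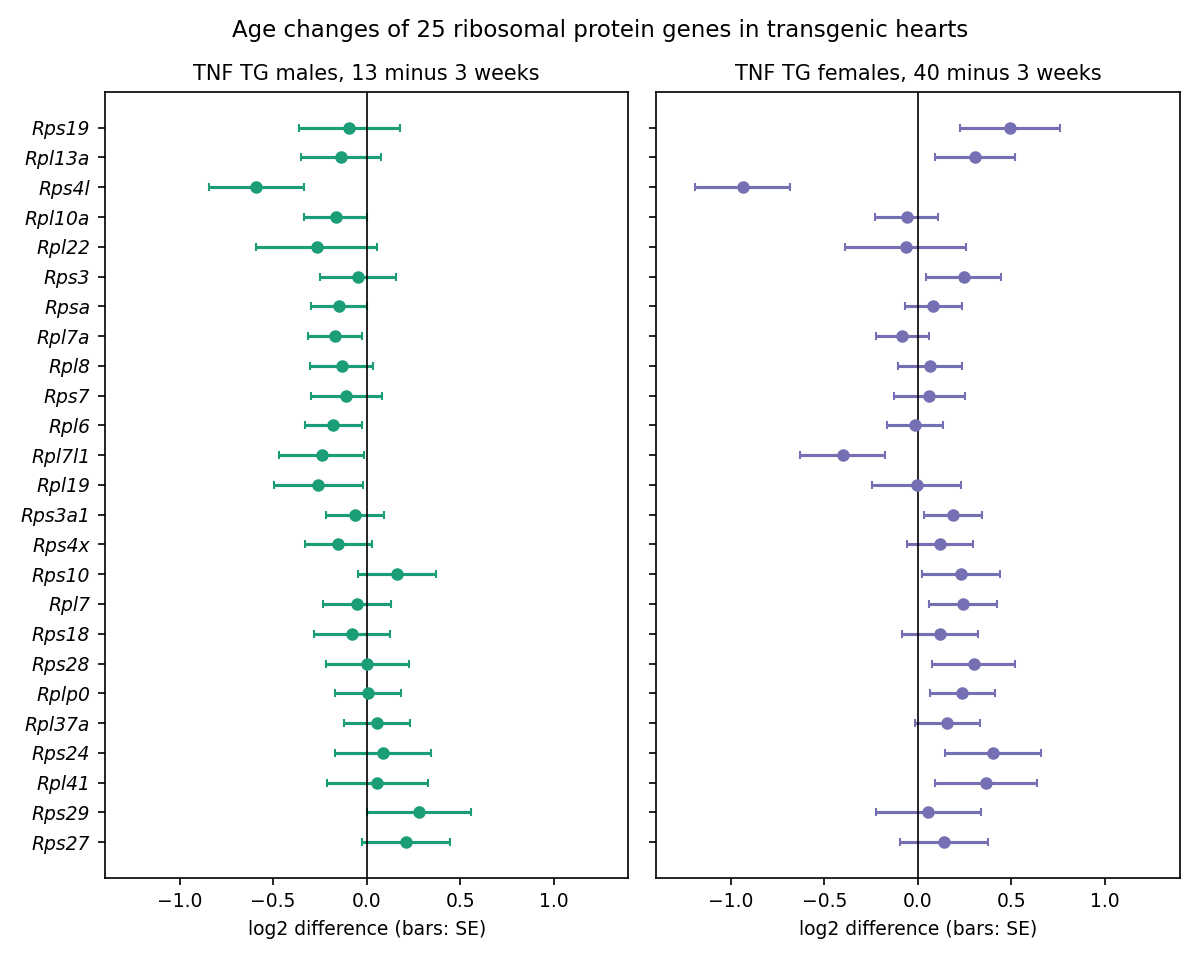
Log2 differences of the 25 genes in transgenic males from 3 to 13 weeks (left) and in transgenic females from 3 to 40 weeks (right), with SE as bars and genes in the order of the transgene effect. Most points lie close to 0, and Rps4l lies farthest below it in both panels, at -0.59 and -0.94.

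Other genes of the translation machinery moved at 3 weeks in ways that differed from list to list. The lists were chosen with results of these data known, and their counts are a description. At 3 weeks 46.6% of all probe sets tested were called, 24.7% higher and 21.9% lower. Each count below is to be read beside these shares. Of 59 tested genes for ribosomal proteins of mitochondria, which translate the few genes of mitochondrial DNA, 26 were lower, 0 were higher and 33 were not called, with a median log2 difference of -0.33. Among them were Mrpl28 (-0.91, SE 0.13, limma adjusted p = 2.6e-05), Mrps21 (-0.93), Mrpl37 (-0.75) and Mrps36 (-0.95). The cardiomyocyte markers fell in the same arrays, as given above. So the tested ribosomal protein genes of the cytosol and those of mitochondria had medians of opposite sign, 0.18 and -0.33. They did so without the outlying array (0.18 and -0.41) and with quantile normalisation (0.40 and -0.40) as well. The cytosolic median was 0.09 with the mean of all probe sets of a gene. Without the brightness filter, where all 35 genes were tested, it was -0.01, against -0.13 for all probe sets. The sign of the cytosolic median thus depends on the filter.

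Of 62 tested genes for ribosome assembly and RNA polymerase I, 18 were higher, 4 lower and 40 not called, with a median of 0.15. Those of smallest p were Rcl1, needed to process 18S rRNA (1.28, SE 0.18, limma adjusted p = 3.2e-05), Npm1, the nucleolar chaperone nucleophosmin (0.95), Tsr1, a factor of small-subunit maturation (0.72), and Nop56, a core protein of box C/D snoRNPs (0.82). Polr1a, the large subunit of RNA polymerase I, was among the 4 that fell, by 0.71. Without the outlying array 14 were higher and 5 lower, with 41% of all probe sets called. With quantile normalisation 19 were higher and 9 lower, with 48.7% of all called. Macrophage markers rose in the same arrays, and their part was not tested.

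Of 16 tested genes with TOP transcripts outside the ribosome, 6 were higher and 1 lower, with a median of 0.31. Pabpc1, the poly(A)-binding protein, rose by 1.23 (SE 0.16, limma adjusted p = 1.9e-05), Nap1l1, a histone chaperone, by 0.87 and Gas5, a non-coding host of snoRNAs, by 0.74. Tpt1, the translationally controlled tumour protein, fell by 0.59. It was not called without the outlying array, where 5 of the 16 were higher and 0 lower.

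Of 34 initiation factors and their kinases, 6 were higher and 3 lower, with a median of 0.15. Besides Pabpc1 these included Eif2ak3, the stress kinase PERK (1.28), and Eif1a (1.11), while Eif2b2, a subunit of the exchange factor eIF2B, fell by 0.77. The median turned to -0.05 without the outlying array. Of 8 elongation factors, Eef1a1, the general form of eEF1A, rose by 0.41 (limma adjusted p = 0.044) and Gspt2, a release factor, by 0.91. Eef1a2, the form of muscle and nerve, fell by 1.64 (SE 0.34, adjusted p = 0.0011). Of 19 aminoacyl-tRNA synthetases 2 were higher, Cars by 0.86 and Rars by 0.59, and 0 lower.

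Of 19 tested genes of mTOR and S6 kinase signalling and of the MYC network, 1 was higher and 7 were lower, with a median of -0.28. Mycn, a MYC family transcription factor, rose by 1.60 (SE 0.22, limma adjusted p = 3.0e-05). Myc was too dim to test, with a signal of 12.2 to 84.8 on FVB arrays and 80.5 to 178.2 on transgenic arrays of 3 weeks. Tsc2, which restrains mTOR complex 1, fell by 1.01, Sesn1, a sestrin that also restrains it, by 1.05 and Akt2, a kinase of insulin signalling, by 0.76. The others called lower were Pik3r1 (-0.96), the S6 kinase gene Rps6kb2 (-0.88, limma adjusted p = 0.014), Mxi1 (-0.515) and Tsc1 (-0.41). The members that fell thus include brakes on mTOR, a kinase that acts above it and an S6 kinase. Without the outlying array 1 was higher and 5 were lower, with 41% of all probe sets called. With quantile normalisation 1 was higher and 8 were lower, with 48.7% of all called. In both age changes 0 genes of any of these lists were called by limma.

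**Figure D5:**
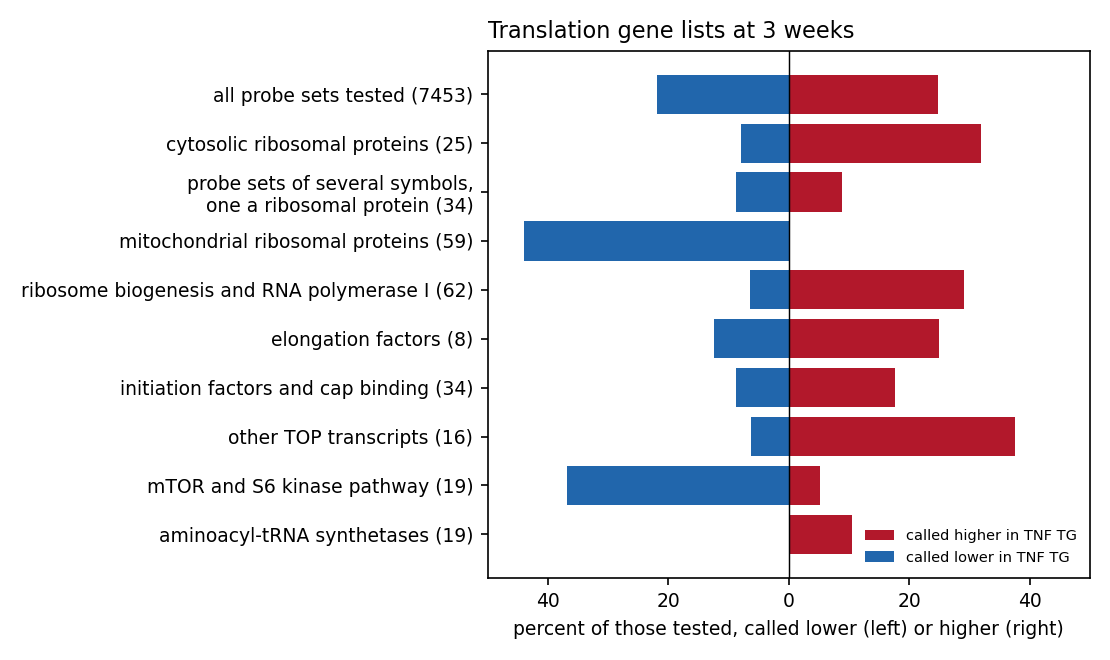
Percent of tested genes of each translation list called lower (left of 0) and higher (right of 0) in transgenic hearts of 3 weeks, with the number tested in brackets and all probe sets on top. Cytosolic ribosomal proteins have 8 higher and 2 lower of 25, while mitochondrial ribosomal proteins have 26 lower and 0 higher of 59.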

How the data were processed

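Gene expression was measured as total RNA of mouse heart on Affymetrix U74Av2 arrays. The values deposited are a linear intensity, or signal, for each probe set, at a common level across arrays (trimmed means 499.2 to 499.9). Which software and background method produced them is not given in the sources used here. The number of arrays limits the precision. Groups were taken from the sample titles, and 2 identical FVB female columns of 18 were counted as 1 array, which leaves 17. Signals were floored at the 25th percentile of all values, 44.675, and taken as log2, and a gene's value is relative to its own probe set only. Of 12422 probe sets without 66 controls, the brightest 60% (7453) were tested with limma 3.58.1 in R 4.3.3, with 6 group means, 11 residual and 4.89 prior degrees of freedom and Benjamini-Hochberg adjustment over all 7453. The transgene effect averages the difference in females and that in males, with equal weight. The code was tested on simulated data. Symbols are those of the platform annotation, which can be old. No probe set with several symbols was named.

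Genes were named by rule: the 8 highest and 8 lowest transgene effects, the 5 highest and 5 lowest of each age change, a fixed set of ribosomal protein genes, in each list at most 4 genes with the smallest p, and Tnf and Myc. Tpt1, Polr1a, Pik3r1, Rps6kb2, Mxi1, Tsc1, Xist, Eif2s3y, the named marker genes and the other ribosomal protein genes were added after their values were seen. The members, lists and alternatives were chosen with earlier results of these data known. Alternatives were quantile normalisation, a common median, other floors and filters, other variance models, other samples in the fit, a replicate block, a mean of all probe sets of a gene, both identical columns kept, and leaving out arrays. A further promoter motif was searched and left out, since it was not on the list of motifs in the design.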

Additional observations from a re-analysis of the deposited data

Results flagged for a closer look

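In groups of 5 FVB and 6 transgenic arrays of 3 weeks, a single array stood far from the rest of its group in some ribosomal protein genes (Dixon's gap test at 95%). The test was made on 35 genes and their mean in both groups, 72 tests in all, and chance alone marks about 1 in 20. It was first made on the 25 bright genes and their mean, where no array stood out, and was then widened to the 10 dim genes, where 7 did. In 6 of these the array deposited as FVB female replicates 1 and 2 was the highest of the FVB arrays: Rps13 had a signal of 1178 against 89.3 to 118.4 on the other 4, Rpl38 271.4 against 44.1 to 81.8, and Rps14 236.4 against 15.5 to 78.3. The same array had 205.3 for Rps27l against 13.4 to 25.4, 201.8 for Rps20 against 15.7 to 32.1, and 37.4 for Rps15 against 4.8 to 12.6. The seventh was transgenic male 1 of 3 weeks, with 51.0 for Rpl38 against 34.2 to 39.9 on the other 5 arrays. All of these genes were too dim for the fit reported. Rps15 also lies under the floor of 44.675 on all of these arrays, so its value does not enter a fit.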

How the results depend on the processing

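For the transgene effect at 3 weeks, Rps19, Rpl13a and Rpl10a were called in all 25 alternatives, Rps4l in 24, Rps3 and Rpsa in 23, Rps27 in 21, Rpl7a in 10, Rps29 in 9 of 24 and Rpl22 in 8. Genes called higher numbered 15 with quantile normalisation and 4 when 3 FVB arrays were left out (the outlying one and males 1 and 2). Leaving out each array gave 4 to 8 higher and 0 to 2 lower. Genes called lower numbered 5 without the filter, where Rpl32, Rpl35a and Rps14 are tested too, 5 with the mean of all probe sets of a gene, 1 when only the groups compared were fitted, and 0 with array weights, with 4 groups in place of 6, or without those 3 arrays. Signs turned with quantile normalisation for Rpl41 (0.16), Rplp0 (0.29), Rpl7 (0.28), Rps24 (0.25), Rps28 (0.21) and Rps18 (0.30), with array weights for Rpl7 (0.01) and Rps18 (0.016), with the mean over probe sets for Rps4x (-0.63), Rpl19 (-0.22) and Rps4l (-0.0079), and without the 3 arrays for Rps4x (-0.045), Rpl19 (-0.078) and Rps10 (-0.027). Leaving out single arrays took Rpl7 from -0.064 to 0.064, Rps18 from -0.13 to 0.057 and Rps28 from -0.12 to 0.071. The difference between the sexes gave 0 to 1 genes called lower when single arrays were left out, the 1 being Rps27 without FVB female 3, where 1492 probe sets (20%) were called, and a common median shifted the median of all probe sets from 0.04 to 0.39 there. From 3 to 13 weeks, quantile normalisation gave -0.0312 for Rpl41 and -0.067 for Rps24, and leaving out single arrays took Rpl41 from -0.069 to 0.24, Rps24 from -0.099 to 0.33, Rps10 from -0.045 to 0.29 and Rps29 from -0.02 to 0.62. From 3 to 40 weeks, array weights gave 1 gene called lower (Rps4l), where 803 probe sets (10.8%) were called, and 0.16 for Rpl22, the mean over probe sets gave 0.10 for Rpl10a, and leaving out single arrays took Rpl22 from -0.24 to 0.13. The cause of these changes was not tested. The mean over probe sets brings in dim probe sets, and leaving out arrays gives less precision, but their part was not tested either. For the transgene effect, all probe sets called numbered 2447 with array weights, against 3474 in the fit reported. The replicate numbers were not taken to pair the samples: of 40 pairs of arrays with the same number, 15 had deviations correlated above 0.1 (range -0.34 to 0.47, median 0.05, against 0.008 for different numbers), and 9 of 17 arrays correlated best with an array of their own number. Of 15 pairs of groups, 1 had all its same-number pairs above 0.1, the transgenic males of 13 weeks and females of 40 weeks (0.16 to 0.47). These are set against each other only in the difference between the age changes, where 0 of the 25 genes were called by limma with and without the block. With the replicate number as a block, the transgene effect had 6 genes higher and 2 lower, and 3328 probe sets were called.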
